A study of Mus musculus with 8 samples.

Results

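The genes described here build ribosomes: they encode the machinery that transcribes, modifies, cuts and assembles ribosomal RNA in the nucleolus, together with subunits and factors of RNA polymerase I. A list of 53 gene symbols was matched to the rows of the deposited array table that carry exactly 1 gene symbol. Of these, 50 were measured, out of 22180 genes named in this way. The remaining 3, Fbl, Tsr1 and Mrto4, occur only on rows shared with other symbols and were not analysed here. Where a gene had several rows, the row with the brightest mean over the 8 arrays stood for it. The 50 genes were sorted by step into 7 of small nucleolar ribonucleoproteins (snoRNPs), 18 of small subunit processing, 15 of large subunit processing, 6 of polymerase I transcription and 4 abundant nucleolar proteins with several roles.

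The RNA came from spleen T cells of female C57BL/6 mice that had received CLL cells of Eµ-TCL1 mice, in which a transgene driven in B cells gives rise to a B cell leukaemia resembling chronic lymphocytic leukaemia. The anti-IL-10R group (4 arrays) received a blocking antibody against the interleukin 10 receptor, and the isotype group (4 arrays) received a control antibody of no such specificity. Both groups carried the leukaemia, treatment began 3 weeks after transplantation and lasted 2 weeks, and the cells were sorted after 5 weeks as lineage-negative, TCRb+, CD8+, CD127 low, CD44 intermediate to high and PD-1 high. The labels give no age of the mice and do not say whether the arrays stand for different animals, so every p-value here reflects array-to-array spread, which may be technical.

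As background, ribosome production starts when RNA polymerase I transcribes the ribosomal DNA into a long precursor. Small nucleolar RNAs guide chemical modification and cutting of this precursor, box C/D snoRNPs adding methyl groups to riboses and box H/ACA snoRNPs turning uridine into pseudouridine. Separate sets of assembly factors then carry the precursors of the small and the large subunit out of the nucleolus. The programme is switched on when T cells grow and divide, and the transcription factor MYC is among its known activators.

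After IL-10R blockade, 47 of the 50 genes had lower signals and 3 had higher ones, but none of the 50 passed the test over all genes with the 8 arrays. The median difference over the 50 genes, anti-IL-10R minus isotype, was −0.27 on the log2 scale, while the median over all 12019 genes tested was 0.03. The differences of single genes ran from −0.66 (Ftsj3) to 0.17 (Nob1). Of the genes tested in the whole table, 45.3% had a difference below 0. The test was limma's moderated test over the 12019 genes whose mean signal was at or above the median of all rows, with Benjamini-Hochberg adjustment and a threshold of 0.05, and all 50 genes were above that limit. It called 0 of the 50, with 2.53% of all tested genes called, 1.3% lower and 1.23% higher. At an unadjusted p below 0.05, 16 of the 50 were lower and 0 higher, against 8.53% of all tested genes that were lower at this level. Taf1d, Nhp2 and Wdr43 had an adjusted p below 0.1, the smallest being 0.0569 for Taf1d, and 3.49% of all tested genes were lower at that level.

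**Figure D1:**
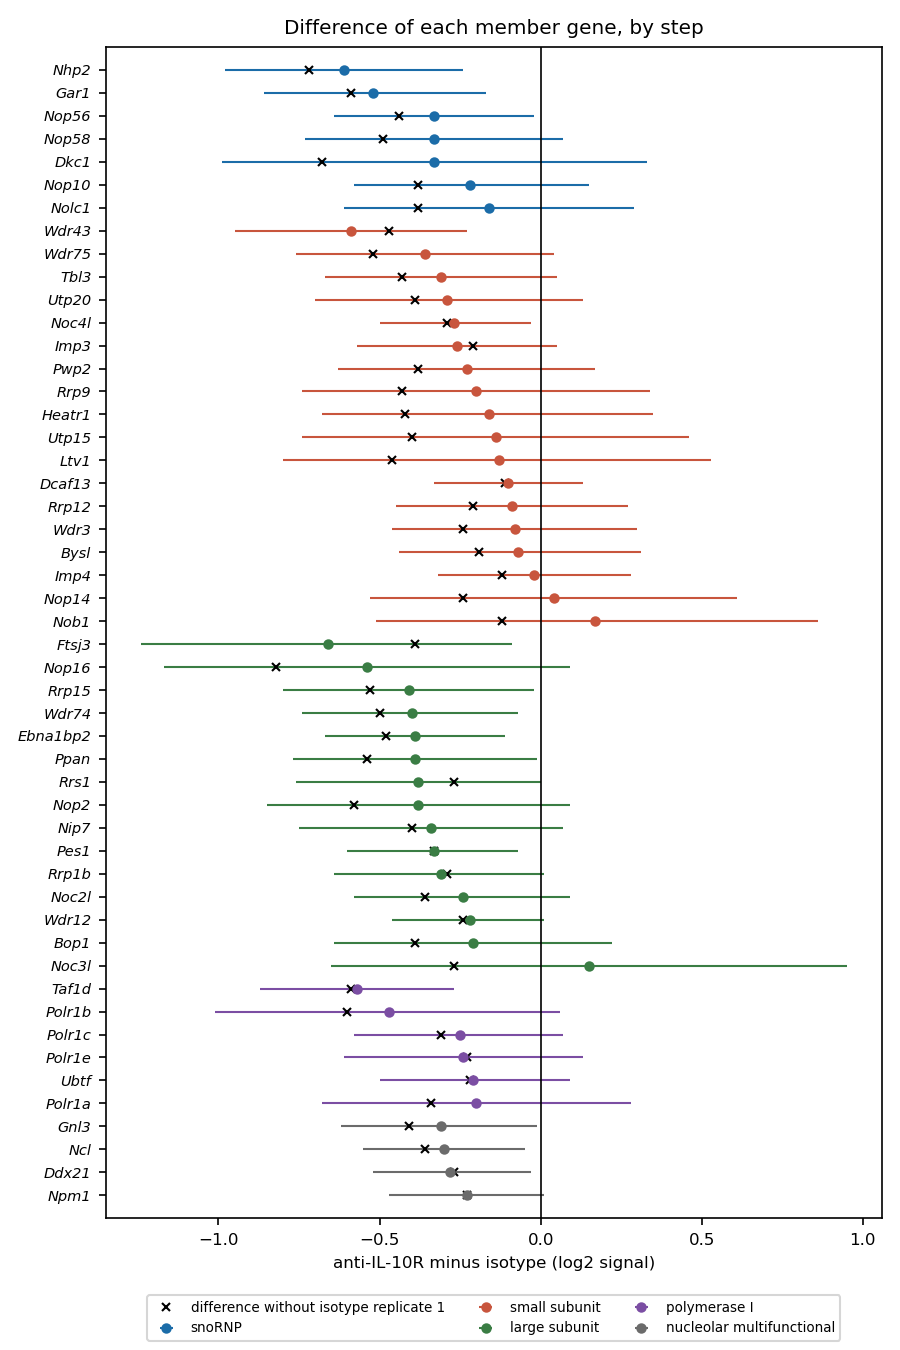
Difference between anti-IL-10R and isotype arrays for each of the 50 genes on the log2 scale, coloured by step. Points are limma estimates from 8 arrays, lines their 95% confidence intervals and crosses the estimates without isotype replicate 1. With 8 arrays 47 points lie below 0, and without isotype replicate 1 all 50 crosses do.

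1 array had a large part in these values. Over the 12019 tested genes, isotype replicate 1 correlated with the other 7 arrays at 0.915 to 0.929 (Pearson's r across genes), whereas the other 7 correlated with each other at 0.962 to 0.986. On this array 36 of the 50 genes had the lowest signal of the isotype group and 4 the highest. Over all tested genes it was the lowest of its group for 53.6%. The median gap between isotype replicate 1 and the mean of the other isotype arrays was −0.46 for the 50 genes and −0.19 for all tested genes. Without this array, each of the 50 genes had a lower mean in the anti-IL-10R group, as did 51.1% of all tested genes. The median of the 50 was then −0.39, against −0.01 for all tested genes. The same test then called 14 of the 50 lower and 0 higher, with 5.9% of all tested genes called lower. Those 14 were Nhp2, Gar1, Nop56, Nop58, Nop10, Dkc1, Wdr75, Heatr1, Ebna1bp2, Wdr74, Ppan, Nop16, Nop2 and Taf1d. Leaving out any of the other 7 arrays called 0 of the 50, in fits that called 3 to 62 of all tested genes (0.025% to 0.516%), so these counts say nothing about the 50.

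The groups did not overlap for 10 of the 50 genes, each lower on all 4 anti-IL-10R arrays, while 5.99% of all tested genes were separated in that direction. They were Nhp2, Gar1, Wdr43, Noc4l, Ebna1bp2, Ftsj3, Wdr12, Taf1d, Ncl and Ddx21. Without isotype replicate 1 the count was 29, against 14.2% of all tested genes. No gene of the 50 was separated in the higher direction with or without that array. The median SD of the 50 genes was 0.17 among anti-IL-10R arrays and 0.30 among isotype arrays, and 0.18 among isotype arrays without replicate 1. All tested genes had medians of 0.16, 0.24 and 0.14 for the same 3 quantities.

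**Figure D2:**
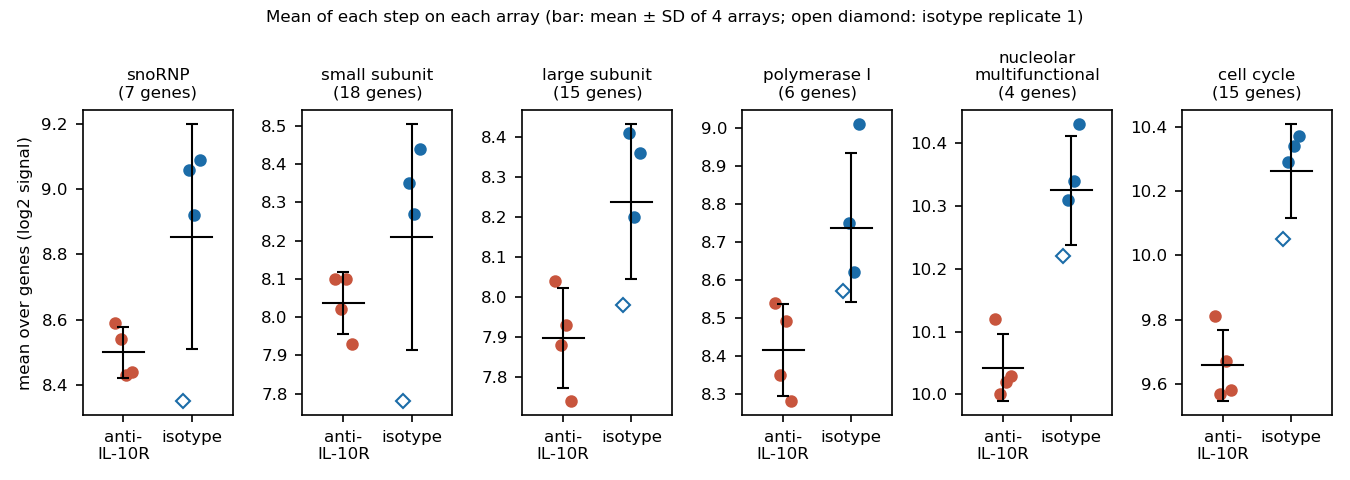
Mean log2 signal over the genes of each step on each array, with 15 cell cycle genes in the last panel, each panel on its own scale. The groups overlap for the snoRNP, small subunit and large subunit genes because of isotype replicate 1 (open diamond), and do not overlap in the other 3 panels.

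The means per array show how far each step depended on that array. The snoRNP genes averaged 8.59, 8.54, 8.43 and 8.44 on the anti-IL-10R arrays, against 8.35, 9.06, 8.92 and 9.09 on the isotype arrays. Isotype replicate 1 lay below every anti-IL-10R array, and the 3 other isotype arrays lay above them. The small subunit genes showed the same order, with 8.10, 8.02, 8.10 and 7.93 after blockade, against 7.78, 8.35, 8.27 and 8.44. For the large subunit genes the means were 8.04, 7.88, 7.93 and 7.74, against 7.98, 8.41, 8.20 and 8.36, so isotype replicate 1 fell among the anti-IL-10R values. The polymerase I genes averaged 8.54, 8.35, 8.49 and 8.28, against 8.57, 8.75, 8.62 and 9.01. For the 4 nucleolar genes the highest anti-IL-10R mean was 10.12 and the lowest isotype mean 10.22. In these last sets the lowest isotype array still lay above the highest anti-IL-10R array.

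Marker lists were summarised for the cells the sort could hold and for cell division. The mean of 15 cell cycle genes was 9.57 to 9.81 on the anti-IL-10R arrays and 10.05 to 10.37 on the isotype arrays, without overlap. With 8 arrays limma called Plk1, Rrm2, Tyms, Bub1, Cdk1, Ccna2 and Tpx2 lower (adjusted p = 0.017 to 0.0498). The rest of this list was not called, and 1.3% of all tested genes were called lower. The mean of 10 B cell genes was 4.77 to 4.91 after blockade and 5.05, 4.80, 5.30 and 5.12 on isotype replicates 1 to 4. It was highest on isotype replicates 3 and 4, which stay in the fit without isotype replicate 1. Of these B cell genes, 7 were below the limit for dim genes, among them Ms4a1 and Pax5. The lists for CD4 T cells, NK cells, macrophages, dendritic cells, neutrophils and erythroid cells had means that overlapped between the groups, but isotype replicate 1 stood apart in single markers. It was the highest of the isotype arrays for 6 of 7 macrophage genes, 4 of 5 neutrophil genes, 3 of 5 CD4 T cell genes, 3 of 5 dendritic cell genes, 2 of 3 NK cell genes and 2 of 10 B cell genes. It was the lowest for 3 of the 10 B cell genes, 2 of the 5 dendritic cell genes and 1 of the 3 NK cell genes. Foxp3, which encodes the defining factor of regulatory T cells, was at 7.97 on that array and at 5.46 to 5.95 on the other isotype arrays, with 5.08 to 5.64 on the anti-IL-10R arrays. Above the mean of the other isotype arrays it also had Klrb1c (by 1.42), Lyz2 (by 1.21), Il7r (by 1.2), Cd14 (by 1.13), Cd79a (by 1.11) and Ly6g (by 0.92), of which only Lyz2 and Cd79a were above the limit for dim genes. Other markers lay below that mean, among them Itgax (gap −0.92), Cd79b (−0.73) and Blk (−0.38). The median gap of the B cell genes was −0.10. For Cd79b it was isotype replicates 3 and 4 that stood out, at 6.82 and 6.47. Isotype replicates 1 and 2 had 5.61 and 5.73, and the anti-IL-10R arrays 5.64 to 5.93. Isotype replicate 1 was the lowest isotype array for 5 of the 6 sort genes, with a gap of −0.81 for Pdcd1, which encodes PD-1, and for 12 of the 15 cell cycle genes. The sort genes (Cd3e, Cd3d, Cd8a, Cd8b1, Pdcd1 and Cd44) averaged 10.99 to 11.05 after blockade and 10.49 to 10.86 in the isotype group, without overlap. Cd3e, Cd8a, Cd8b1 and Pdcd1 were each higher after blockade without overlap, with or without isotype replicate 1, while Cd3d and Cd44 overlapped. With 8 arrays, 1120 of all 12019 tested genes were separated in that direction. No sort gene was called in either fit. Il7r, which encodes CD127, was below the limit. The part of these markers in the differences of the 50 genes was not tested, apart from a fit with the B cell mean as a covariate, in which the median of the 50 was −0.34. That fit called 0 of the 50 and 3 of all tested genes (0.025%), so its count of calls says nothing about the 50. The B cell mean itself differed between the groups by −0.24 and came mostly from dim genes. With 8 arrays the median of this fit therefore cannot tell B cell RNA and treatment apart. In RNA from sorted cells, a change in the share of dividing cells and a change in RNA per cell cannot be told apart.

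Promoter sequence was compared as a property that the choice of genes did not use. RefSeq windows of build GRCm38.p6, from 250 bases before to 50 bases after a gene's start, were found for 44 of the 50 genes and for 9439 of the tested genes. The E-box CACGTG, the letters that MYC and its partner MAX bind best, occurred in the windows of 6 of the 44 genes (13.6%) and of 11.4% of the tested genes. It reads the same on both strands. The letters CCGGAAG, the core of sites of ETS family factors, were searched on both strands, where the opposite strand reads CTTCCGG. Matches of the E-box and of these letters cannot overlap each other. CCGGAAG occurred on either strand in 17 of the 44 genes (38.6%), against 19.7% of the tested genes. The median difference in expression was −0.31 for the 6 genes with CACGTG and −0.28 for those without, and −0.25 for the 17 genes with CCGGAAG and −0.29 for those without. A match describes the letters and shows no binding.

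The stretches below lie before the outermost annotated start of their gene and show matches near genes of separate steps: Nhp2 and Gar1, core proteins of box H/ACA snoRNPs, Polr1c, a subunit of RNA polymerases I and III, and Nop2 and Imp4. The matched letters are in capitals. They are written 5′ to 3′ on the strand of the gene. Nhp2 is at chr11:51619710-51619772 on the plus strand, Gar1 at chr3:129831408-129831479 on the minus strand, Polr1c at chr17:46248046-46248127 on the minus strand, Nop2 at chr6:125131783-125131868 on the plus strand and Imp4 at chr1:34439668-34439753 on the plus strand. Nop2, which encodes a cytosine methyltransferase of the large subunit RNA, holds both sets of letters, and Imp4, a partner of the U3 snoRNP, holds the E-box alone.
Nhp2: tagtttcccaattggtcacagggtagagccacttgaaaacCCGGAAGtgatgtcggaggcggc
Gar1: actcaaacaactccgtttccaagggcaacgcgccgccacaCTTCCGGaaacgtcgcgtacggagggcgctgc
Polr1c: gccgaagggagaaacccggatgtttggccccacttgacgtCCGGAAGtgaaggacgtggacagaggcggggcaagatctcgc
Nop2: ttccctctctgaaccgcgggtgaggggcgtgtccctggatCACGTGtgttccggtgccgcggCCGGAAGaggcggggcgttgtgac
Imp4: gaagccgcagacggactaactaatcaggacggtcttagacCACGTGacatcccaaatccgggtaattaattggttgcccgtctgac
The expression of these genes differed by −0.61 (Nhp2), −0.52 (Gar1), −0.25 (Polr1c), −0.38 (Nop2) and −0.02 (Imp4) with 8 arrays, so the stretches with the E-box stood beside both a larger and a very small difference.

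The snoRNP genes were all 7 lower, with a median difference of −0.33 and a range of −0.61 to −0.16. Nhp2 (transcript cluster 17249347), whose upstream stretch holds CCGGAAG, had 8.54, 8.54, 8.33 and 8.29 on the anti-IL-10R arrays, against 8.70, 9.36, 8.82 and 9.25 on the isotype arrays. All 4 anti-IL-10R values lay below every isotype value. Its difference was −0.61 ± 0.16 (SE), a ratio of 0.656, with a 95% confidence interval of −0.98 to −0.24 and a limma adjusted p of 0.0815. Gar1, with the same letters on the opposite strand, had 7.57, 7.43, 6.99 and 7.56 after blockade, against 7.67, 8.0, 8.04 and 7.91. These groups did not overlap either, and the difference was −0.52 ± 0.15 (adjusted p = 0.104).

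Dkc1 encodes dyskerin, the pseudouridine synthase of these particles, and its result rested on 1 array more than that of any other snoRNP gene. It had 7.97, 7.85, 7.87 and 7.69 on the anti-IL-10R arrays, against 7.14, 8.44, 8.43 and 8.70 on the isotype arrays. The lowest and the 3 highest values all belonged to the isotype group. With 8 arrays the difference was −0.33 ± 0.29 (limma adjusted p = 0.582), and without isotype replicate 1 it was −0.68 (adjusted p = 0.00945), the smallest adjusted p of the 50 genes in that fit. Nop10, the fourth core protein of the H/ACA particles, differed by −0.22 with 8 arrays and by −0.38 without that array.

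Nop56 and Nop58 are the paired core proteins of box C/D snoRNPs, in which they hold the guide RNA and the methyltransferase. Nop56 had 9.57, 9.48, 9.40 and 9.64 after blockade, against 9.51, 10.03, 9.83 and 10.03 in the isotype group. Nop58 had 9.45, 9.25, 9.46 and 9.01, against 9.13, 9.77, 9.73 and 9.86. In both genes the anti-IL-10R values lay below 3 isotype arrays and overlapped with isotype replicate 1. The difference was −0.33 for each, with an SE of 0.14 for Nop56 and 0.18 for Nop58 (limma adjusted p = 0.224 and 0.344). Nop56 had 2 dimmer rows, which differed by 0.40 ± 0.57 and 0.04 ± 0.15, so its rows did not have the same sign. The gene carries snoRNAs in its introns, and which of its rows measure the messenger RNA was not tested. Nolc1, a chaperone of snoRNPs, had the smallest difference of this step, −0.16.

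Small subunit processing had a median difference of −0.15, the closest to 0 of the steps with 8 arrays, with 16 genes lower and 2 higher. Without isotype replicate 1 all 18 were lower and the median was −0.34, no longer the closest to 0, with −0.32 for polymerase I and −0.31 for the nucleolar genes. Wdr43, a component of the UTP-A complex that binds the nascent precursor, had 8.75, 9.0, 9.21 and 8.92 on the anti-IL-10R arrays, against 9.90, 9.47, 9.63 and 9.24 on the isotype arrays. The groups did not overlap, and unlike most of the 50 genes its highest value was that of isotype replicate 1. The difference was −0.59 ± 0.16 (SE), a ratio of 0.665, with an interval of −0.95 to −0.23 and a limma adjusted p of 0.0831. Without that array it was −0.47 (adjusted p = 0.0582).

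Noc4l, an assembly factor that pairs with Nop14, had 7.43, 7.33, 7.41 and 7.45 after blockade, against 7.58, 7.61, 7.62 and 7.86. All isotype values lay above these, by a small amount, and the difference was −0.27 ± 0.10 (SE, limma adjusted p = 0.198). Wdr75, also of the UTP-A complex, had 7.96, 7.68, 7.76 and 7.84, against 7.68, 8.37, 8.08 and 8.53, overlapping at isotype replicate 1 only. Its difference was −0.36 with 8 arrays (adjusted p = 0.303) and −0.52 without isotype replicate 1 (adjusted p = 0.0352). Tbl3, a member of the UTP-B complex, had 7.28, 7.04, 7.39 and 7.08, against 7.13, 7.73, 7.43 and 7.73. It differed by −0.31 ± 0.16 (adjusted p = 0.322).

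In the same step, Nob1 and Nop14 were higher with 8 arrays. Nob1, the endonuclease that makes the final cut at the end of the small subunit RNA, had 8.07, 7.75, 8.25 and 7.58 on the anti-IL-10R arrays, against 6.85, 7.75, 7.88 and 8.48 on the isotype arrays. Its isotype values enclosed all anti-IL-10R values, and the difference was 0.17 ± 0.30 (SE, limma adjusted p = 0.797). Nop14 had 8.10, 7.98, 8.25 and 8.45, against 7.30, 8.43, 8.42 and 8.47, with isotype replicate 1 far below the rest. It differed by 0.04 ± 0.25. Without isotype replicate 1 both differences turned negative, to −0.12 for Nob1 and −0.24 for Nop14. The 12 genes of this step not named so far with values were Heatr1, Utp15, Utp20, Pwp2, Wdr3, Dcaf13, Rrp9, Imp3, Imp4, Rrp12, Ltv1 and Bysl, with differences of −0.29 (Utp20) to −0.02 (Imp4). Among them Heatr1, a large scaffold protein of the UTP-A complex, was called without isotype replicate 1, where it differed by −0.42 (adjusted p = 0.0311).

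Large subunit processing had a median difference of −0.38, with 14 of 15 genes lower. With 8 arrays this was the median farthest from 0 of all steps, but without isotype replicate 1 it was −0.39 and the snoRNP median −0.49, so the order of the steps rested on that array. Ebna1bp2, a nucleolar factor of the early large subunit precursor, had 8.12, 7.99, 8.08 and 7.91 on the anti-IL-10R arrays, against 8.15, 8.39, 8.58 and 8.54 on the isotype arrays. The groups were separated by the narrow gap between 8.12 and 8.15. The difference was −0.39 ± 0.12 (SE), a ratio of 0.763 (limma adjusted p = 0.122), and −0.48 without isotype replicate 1 (adjusted p = 0.0208). Ftsj3, an RNA methyltransferase, had 7.22, 6.69, 7.11 and 7.01, against 8.49, 7.58, 7.28 and 7.33. Every isotype value was higher, and isotype replicate 1 stood 1.10 above the mean of the others. The difference was −0.66 ± 0.26 (adjusted p = 0.19), the largest of the 50 genes, and −0.39 without isotype replicate 1.

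Pes1, Bop1 and Wdr12 form the PeBoW complex, which is required for maturation of the large subunit RNA. Pes1 had 9.81, 9.90, 9.70 and 9.84 after blockade, against 10.15, 10.30, 9.89 and 10.23 in the isotype group. The highest anti-IL-10R value lay just above the lowest isotype value. The difference was −0.33 ± 0.12 (SE, limma adjusted p = 0.158) and was the same without isotype replicate 1. Wdr12 differed by −0.22 with groups that did not overlap, and Bop1 by −0.21 with overlapping groups. None of the 3 was called in either fit.

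Among the other large subunit genes, Wdr74, a factor of the remodelling of nuclear large subunit precursors, had 8.27, 8.09, 7.99 and 7.79, against 8.15, 8.67, 8.55 and 8.37. It differed by −0.40 ± 0.15 (SE, limma adjusted p = 0.176) and by −0.50 without isotype replicate 1 (adjusted p = 0.0455). Noc3l, a factor of large subunit export, was the exception in direction. It had 6.93, 6.92, 6.66 and 6.52 after blockade, against 5.36, 7.27, 6.83 and 6.97, and isotype replicate 1 differed from the mean of the other isotype arrays by −1.66. Its difference was 0.15 ± 0.36 with 8 arrays and −0.27 without that array. Nop16, whose isotype replicate 1 was also low, had the most negative difference of the 50 genes without that array, −0.82 (adjusted p = 0.0229), and −0.54 with it (adjusted p = 0.321). The remaining 7 genes, Nop2, Noc2l, Rrs1, Rrp1b, Rrp15, Ppan and Nip7, differed by −0.41 (Rrp15) to −0.24 (Noc2l) with 8 arrays.

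**Figure D3:**
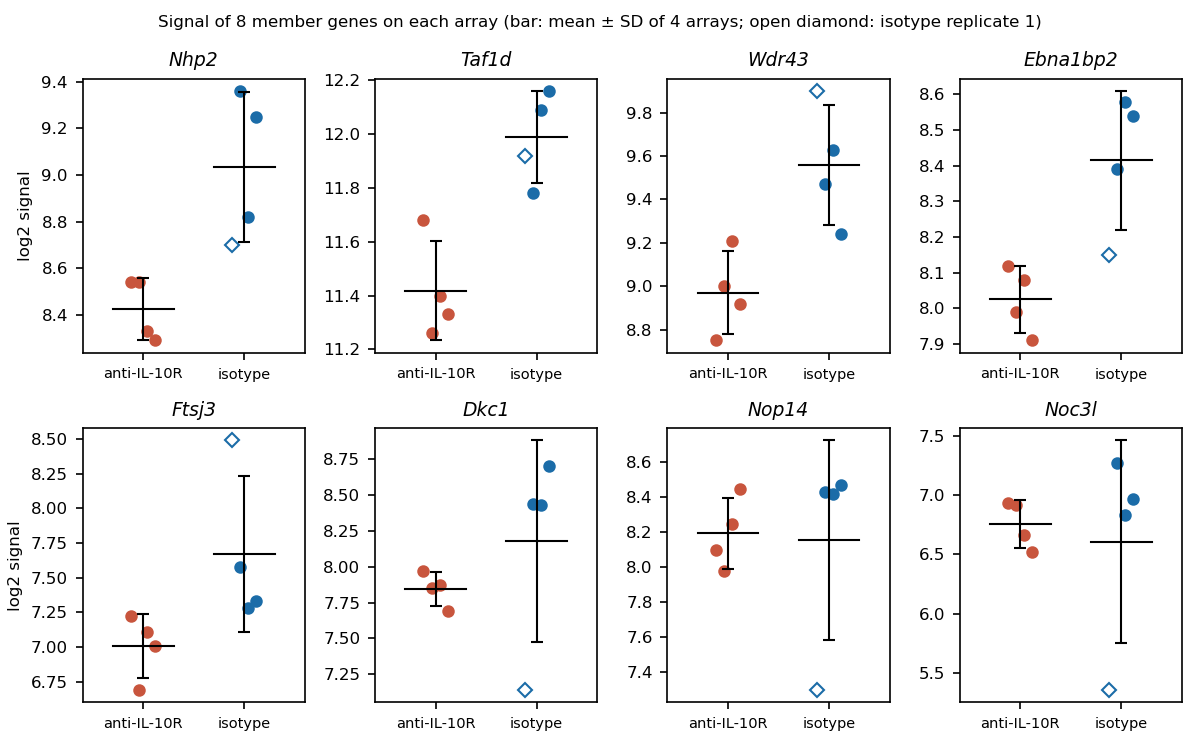
Log2 signal of 8 genes on each array, with anti-IL-10R arrays on the left and isotype arrays on the right of each panel; bars are the mean ± SD of 4 arrays and each panel has its own scale. Groups do not overlap in Nhp2, Taf1d, Wdr43, Ebna1bp2 and Ftsj3, whereas in Dkc1, Nop14 and Noc3l isotype replicate 1 (open diamond) is the lowest value.

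All 6 polymerase I genes were lower, with a median of −0.25 and a range of −0.57 to −0.20. Taf1d, a subunit of the selectivity factor that places polymerase I at the ribosomal DNA promoter, had 11.68, 11.26, 11.40 and 11.33 on the anti-IL-10R arrays, against 11.92, 11.78, 12.09 and 12.16 on the isotype arrays. The groups did not overlap, and isotype replicate 1 was not extreme for this gene. The difference was −0.57 ± 0.13 (SE), a ratio of 0.674, with an interval of −0.87 to −0.27 and a limma adjusted p of 0.0569. Without isotype replicate 1 it was −0.59 (adjusted p = 0.0286). Taf1d had 11 rows, of which 7 were lower and 4 higher, with differences between −0.71 and 0.29. Among the higher rows, transcript clusters 17288059 and 17514836 held the same values on every array and 17293513 nearly the same, so they are not separate measurements. With the mean of all rows, the difference of Taf1d was −0.25 (limma adjusted p = 0.394). This gene also hosts small nucleolar RNAs, and whether its brightest row (transcript cluster 17514832) measures the messenger RNA was not tested.

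The enzyme's subunits and the main DNA-binding factor had differences closer to 0. Polr1b, the second largest subunit of the enzyme, had 7.23, 6.89, 7.23 and 6.94 after blockade, against 7.17, 7.90, 7.02 and 8.10. The isotype values fell into a low and a high pair, and the difference was −0.47 ± 0.24 (SE, limma adjusted p = 0.311). Polr1c, a subunit shared with RNA polymerase III, had 8.82, 8.67, 8.58 and 8.34, against 8.70, 9.15, 8.69 and 8.89, and differed by −0.25 ± 0.15. Ubtf, the upstream binding factor of ribosomal DNA, had 9.25, 9.20, 9.16 and 8.99, against 9.32, 9.11, 9.38 and 9.62, and differed by −0.21 ± 0.13 (adjusted p = 0.419). Both overlapped between the groups. Polr1e and Polr1a, the largest subunit, differed by −0.24 and −0.20. No polymerase I gene other than Taf1d was called without isotype replicate 1.

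The genes of the 4 abundant nucleolar proteins were all lower, with differences of −0.31 to −0.23 and a median of −0.29. Within the isotype group, Gnl3 and Ncl were lowest on isotype replicate 1, with gaps of −0.39 and −0.22 to the mean of the others, while Ddx21 and Npm1 were in the middle there. Ncl encodes nucleolin, which binds ribosomal DNA and its transcript, and had 10.84, 10.84, 10.84 and 11.01 after blockade, against 11.02, 11.13, 11.23 and 11.37. The groups were separated by a very narrow gap, and the difference was −0.30 ± 0.11 (SE, limma adjusted p = 0.173). Ddx21, an RNA helicase of polymerase I transcription and precursor processing, had 9.58, 9.59, 9.47 and 9.24, against 9.77, 9.74, 9.70 and 9.78. It was separated as well and differed by −0.28 ± 0.11 (adjusted p = 0.202). Npm1, which encodes the histone chaperone nucleophosmin, had 11.98, 11.86, 11.84 and 12.10, against 12.19, 12.07, 12.24 and 12.22. A single anti-IL-10R array lay within the isotype values, and the difference was −0.23 ± 0.11. Gnl3, which encodes the GTP-binding protein nucleostemin, had 8.07, 7.72, 7.95 and 7.76, against 7.90, 8.31, 8.18 and 8.36. It differed by −0.31 ± 0.14 (adjusted p = 0.242).

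Beyond the 50 genes, a second list of 116 genes of ribosome biogenesis was examined, of which 106 were measured and 105 were above the limit for dim genes. Of the 105, 77 were lower and 28 higher, with a median difference of −0.17, where 45.3% of all tested genes were lower. None (0) passed limma's adjusted threshold, which 2.53% of all tested genes passed. At an unadjusted p below 0.05, 15 were lower and 0 higher, against 8.53% of all tested genes that were lower. The median was −0.19 over 35 further small subunit genes, −0.15 over 42 further large subunit genes, −0.17 over 12 genes of the RNA exosome and its partners, −0.24 over 9 genes of snoRNP assembly and −0.14 over 7 further polymerase I genes. Without isotype replicate 1, 91 of the 105 were lower with a median of −0.27, and 10 were called lower, against 51.1% of all tested genes lower and 5.9% called lower. Exosc7, a subunit of the exosome, had the smallest adjusted p with 8 arrays and was chosen after its value was seen. It had 7.85, 7.55, 7.78 and 7.45 after blockade, against 8.09, 8.53, 8.02 and 8.09, and differed by −0.52 ± 0.15 (SE, limma adjusted p = 0.0923).

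**Figure D4:**
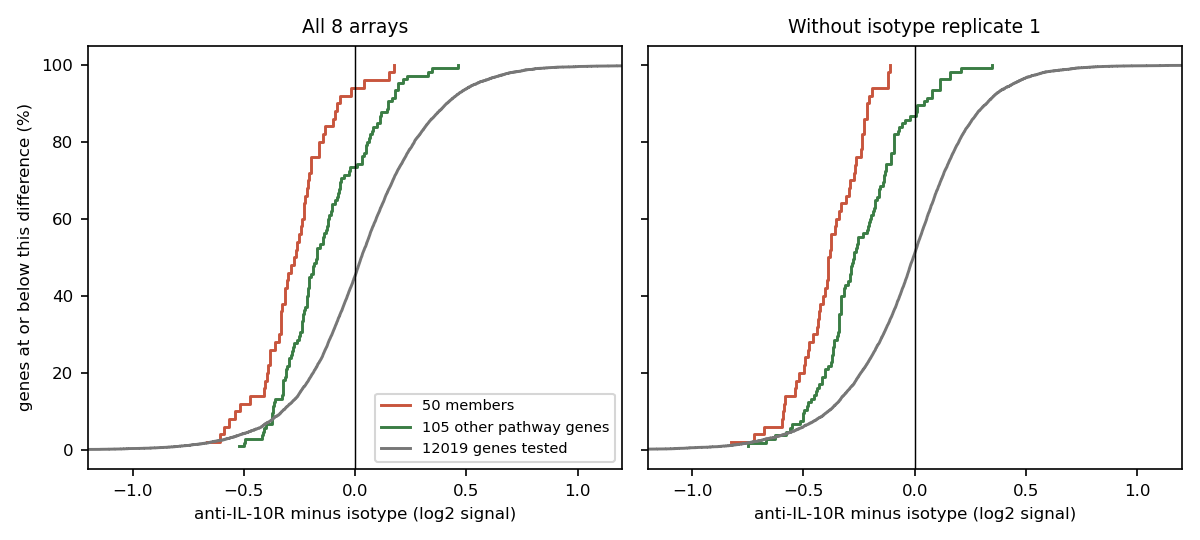
Cumulative share of genes by their difference between anti-IL-10R and isotype arrays, for the 50 genes, 105 other genes of the pathway and all 12019 tested genes, with 8 arrays (left) and without isotype replicate 1 (right). Most of the curve of the 50 genes lies to the left of the curve of all tested genes, and their medians are −0.27 and 0.03 in the left panel and −0.39 and −0.01 in the right panel.

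Myc, which encodes the activator that binds the E-box, was examined beside them. It had 8.39, 8.11, 8.11 and 7.73 on the anti-IL-10R arrays, against 8.46, 8.78, 8.87 and 8.59 on the isotype arrays. The groups did not overlap, and the difference was −0.59 ± 0.16 (SE, limma adjusted p = 0.0799), or −0.66 without isotype replicate 1 (adjusted p = 0.0296).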

How the data were processed

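The deposited table holds log2 signals per transcript cluster of GeneChip Mouse Gene 2.0 ST arrays, and the submitters' processing notes name Affymetrix Power Tools. Its version, summarisation and normalization between arrays were not given in the sources used here. This log2 scale was read from the values (1.57 to 13.89). Of 41345 rows, 23521 carried exactly 1 gene symbol in GEO's platform annotation, and 1814 carried several. Levels cannot be set against those of other genes, and precision is limited by having 4 arrays a group. No 2 arrays held identical values. Genes with a mean of at least 5.24 over the 8 arrays were tested in R 4.3.3 by limma 3.58.1, using lmFit, eBayes without a trend, two-sided p-values and Benjamini-Hochberg adjustment over 12019 genes, after the code had been tested on simulated data. Isotype replicate 1 is included unless stated otherwise. Genes named with array values were the 4 of smallest p in each step and the gene that went most against its step's direction. A few others (Dkc1, Nop14, Nop16, Nop10, Nolc1, Wdr12, Bop1, Heatr1 and the ends of ranges) were named after their values were seen. The members, steps and lists were chosen with earlier results of these data known. Alternatives were no filter, a stricter filter, quantile normalization, centring, the mean of all rows, trended robust variance, array weights, a replicate block, a B cell covariate, omission of each array in turn and a threshold of 0.1. The same-numbered arrays of the groups were not treated as pairs.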

Additional observations from a re-analysis of the deposited data

Results flagged for a closer look

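Of 100 groups of 4 values (50 genes in each group of arrays), 7 held a highest or lowest value whose gap to the nearest other value took up most of the group's range (Dixon's test at the 95% level). Chance alone gives about 1 such group in 20. In the anti-IL-10R group, replicate 4 was below the others for Imp3 (9.60, with the others at 10.03 to 10.08) and Ltv1 (8.30, with the others at 8.79 to 8.89), and above them for Ncl (11.01, with the others at 10.84). In the isotype group, replicate 1 was far below the others for Dkc1 (7.14, with the others at 8.43 to 8.70) and for Nop14 (7.30, with the others at 8.42 to 8.47). Isotype replicate 4 was above the others for Noc4l (7.86, with the others at 7.58 to 7.62) and Wdr12 (7.78, with the others at 7.63 to 7.65).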

How the results depend on the processing

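The number of the 50 genes called was 0 with 8 arrays. It was 1 (Taf1d) with the stricter filter, where 44 were tested and 6.93% of all genes were called, and 1 (Taf1d) with trended robust variance (3.51% of all genes). It was 3 after quantile normalization (Nhp2, Ebna1bp2 and Taf1d, with 5.25% of all genes) and 15 with array weights (12.2%). At a threshold of 0.1 it was 3 (Taf1d, Nhp2 and Wdr43), with 896 of all 12019 tested genes passing in either direction. Of these, the counts with the stricter filter, trended variance, quantile normalization and the threshold of 0.1 lie near or below the share over all genes in either direction. The shares of all genes called lower were 3.33%, 1.64%, 3.55% and 3.49% in that order, and 6.78% with array weights. Leaving out single arrays gave 0 to 14, with 14 only without isotype replicate 1; the other 7 fits called at most 0.516% of all genes. No filter, median centring, the mean of all rows, the replicate block and the B cell covariate gave 0, in fits that called 0.025% (B cell covariate) to 2.62% (mean of all rows) of all genes. For the second list of pathway genes the count of 0 became 1 after quantile normalization (5.25% of all genes) and 14 with array weights (12.2%). It became 2 at a threshold of 0.1, which 896 of all 12019 tested genes passed. With single arrays left out it was 0 to 10, with 10 only without isotype replicate 1 (9.25% of all genes). Each of these counts lies near or below the share of all genes called in either direction. The share called lower was 6.78% with array weights and 5.9% without isotype replicate 1, where all 10 calls were lower. Separated groups numbered 10 of the 50 as deposited, where 5.99% of all tested genes were separated in the lower direction. They numbered 29 without isotype replicate 1 (14.2%), 11 to 14 with another array left out and 18 after quantile normalization. For quantile normalization and those other omissions the share over all tested genes was not computed, so 18 and 11 to 14 say nothing about the 50. These separation counts were added after seeing the data. The median of the 50 genes was −0.39 to −0.23 with single arrays left out, with −0.49 to −0.25 for snoRNP, −0.34 (without isotype replicate 1) to −0.10 (without isotype replicate 2 or 4) for small subunit, −0.42 to −0.30 for large subunit, −0.35 to −0.21 for polymerase I and −0.31 to −0.25 for nucleolar genes, and the polymerase I median was −0.45 with the B cell covariate. Signs turned for Nop56 with the mean of all rows (0.04) and on its dimmer rows (0.40 and 0.04), for Taf1d on 4 dimmer rows (0.04 on 3 and 0.29 on 1), for Nob1 with array weights (−0.10) and without isotype replicate 1 (−0.12, the highest value with an array left out being 0.42), and for Noc3l with array weights (−0.18), the B cell covariate (−0.03) and without isotype replicate 1 (−0.27, the highest being 0.37); the cause was not tested. Same-numbered arrays deviated together at −0.16 to 0.12, and 2 of 8 arrays correlated best with their own number. This check gave no sign that the numbers pair the arrays, but with 4 arrays a group it cannot exclude pairing. The replicate block called 0 of the 50 genes and 4 of all tested genes, against 304 without it.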
